A study of Homo sapiens with 21 samples.

Results

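Integrins are adhesion receptors made of 1 α and 1 β chain, and the transcripts of 10 chains were followed here in OCI-AML5, a human acute myeloid leukemia cell line, exposed to the small molecule UM171. The chains were chosen as those of hematopoietic cells together with ITGA3, and all 10 were found among the 58174 gene identifiers of the deposited tables. They were ITGAL, ITGAM, ITGAX and their common partner ITGB2, ITGA4 with its partners ITGB1 and ITGB7, ITGA5, ITGA3 and ITGA6. The choice used no measured value, but it was made with earlier results of these data known.

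As background, an integrin reaches the cell surface only as a pair, and the β chain available limits which α chains can be displayed. ITGB2 (CD18) pairs with ITGAL (CD11a) to form the leukocyte receptor for ICAM ligands, and with ITGAM (CD11b) or ITGAX (CD11c) to form complement and fibrinogen receptors of granulocytes, monocytes and dendritic cells. ITGA4 (CD49d) pairs with ITGB1 (CD29) to bind VCAM1 and fibronectin in the marrow, or with ITGB7 to bind MADCAM1 in the gut, and ITGA5 pairs with ITGB1 to form the main fibronectin receptor. Talin and kindlin proteins switch these pairs to the binding state from inside the cell.

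Poly(A) RNA of 21 libraries was sequenced, in 7 groups of 3. OCI-AML5 cells had been kept in DMSO, the vehicle, with a labelled time of 72 h, or in 500 nM UM171 for 6, 24, 48 or 72 h. The contrasts at 6, 24 and 48 h therefore set UM171 against DMSO libraries labelled with another time, a time that the study lists differently, so treatment and time in culture cannot be told apart there. OCI-AML5 cells carrying sgEPCR, a guide RNA against PROCR (the gene of the endothelial protein C receptor, EPCR), had been kept in DMSO or in 500 nM UM171 for 24 h. The labels call these cells both a clone that is EPCR null and an EPCR knockdown, do not say whether the 3 libraries of a group came from separate clones or cultures, and name no guide RNA for the other 5 groups. The study describes 3 independent sgEPCR clones and wild-type cells with the guide sgAAVS1, but does not say which libraries these are. All cells are of 1 cell line, so the p-values measure the spread between libraries of that line, which may be technical or, in the sgEPCR groups, between clones.

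Summed expected counts lay between 24.3 and 51.5 M, and the median library held 33.9 M. PROCR transcripts averaged 3.68 ± 0.534 TPM (transcript abundance per length, scaled to a fixed sum in each library; SD, n = 3) in DMSO and 48.5 ± 0.0115 after 24 h of UM171, against 3.59 ± 1.15 and 7.19 ± 2.58 in the sgEPCR groups. In 2 libraries, sgEPCR DMSO replicate 1 and sgEPCR UM171 replicate 2, mitochondrially encoded genes took over 20% of the counts (35.9% and 32.2%), against 7.73 to 13.5% in the other 19. The deposited length of a gene, a mean over its transcripts weighted by abundance, was over 10% below the DMSO mean for 32.7% and 27.1% of 7269 genes in the same libraries, and for 21.6% in UM171 48 h replicate 3, against 0.454 to 8.64% elsewhere. For the members, responses and differences that involve sgEPCR cells are given with and without the 2 libraries. Of 7 myeloid marker genes 5 (CD33, SPI1, PTPRC, CSF2RA and LYZ) exceeded 1 TPM in all 21 libraries, with the list summing to between 747 and 2390 TPM. T cell, NK cell, erythroid and stromal markers had no member above 1 TPM throughout, and MS4A1, CD5, GP9 and PF4 were at 0 counts in every library. Single genes of the other lists were present: CD79A of the B cell list averaged 9.67 TPM in DMSO and 38.5 at 48 h, CD3D of the T cell list 0.447 and 16.1, and ITGA2B of the megakaryocyte list 1.27 TPM in DMSO and 17.7 at 72 h. Their part in the integrin results was not tested.

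On GRCh38, ITGAL (ENSG00000005844, chromosome 16, 30472658 to 30523567), ITGAM (ENSG00000169896, 31259967 to 31332892) and ITGAX (ENSG00000140678, 31355134 to 31382999) lie on the same strand of chromosome 16, with ITGAM and ITGAX close together. ITGB2 (ENSG00000160255) spans chromosome 21, 44885953 to 44931989, and ITGB1 (ENSG00000150093) chromosome 10, 32887273 to 33005792. ITGA4 (ENSG00000115232) lies on chromosome 2 from 181457202 to 181538940. Chromosome 12 holds ITGB7 (ENSG00000139626, 53191323 to 53207282) and ITGA5 (ENSG00000161638, 54395261 to 54419266). ITGA6 (ENSG00000091409) is on chromosome 2, 172427354 to 172506459, and ITGA3 (ENSG00000005884) on chromosome 17, 50055968 to 50090481.

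The 250 bases before the RefSeq start (GRCh38.p14) are shown for ITGAM, the tested chain with the largest rise at 72 h, and for ITGB7, whose 24 h response differed between the cell groups. Capitals mark matches to GAGGAA or its reverse complement, searched on both strands, a core that PU.1, the myeloid transcription factor encoded by SPI1, can bind. The ITGAM stretch lies on the plus strand at chr16:31259725-31259974 and the ITGB7 stretch on the minus strand at chr12:53207252-53207501.
ITGAM: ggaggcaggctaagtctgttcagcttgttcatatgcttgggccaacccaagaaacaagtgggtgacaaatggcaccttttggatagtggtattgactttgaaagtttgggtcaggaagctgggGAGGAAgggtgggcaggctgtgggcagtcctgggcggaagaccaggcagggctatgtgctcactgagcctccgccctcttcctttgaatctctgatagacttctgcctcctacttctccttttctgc
ITGB7: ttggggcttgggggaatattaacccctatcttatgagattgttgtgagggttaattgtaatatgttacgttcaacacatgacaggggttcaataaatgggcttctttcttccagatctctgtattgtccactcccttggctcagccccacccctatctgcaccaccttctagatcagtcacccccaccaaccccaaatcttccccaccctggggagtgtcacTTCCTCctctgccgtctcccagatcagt
The match lay at -127 to -122 from the start in ITGAM and at -28 to -23 in ITGB7, and 23.6% of 35116 human stretches of this kind hold at least 1. Of the other members with an entry, ITGB1 held a match at -184 to -179 in 1 of its 2 stretches, and ITGA4, ITGA5 and ITGA6 held none. A match of 6 letters is a description of the sequence and not of a bound site. GC content of the stretches was 53.2% for ITGAM and 49.6% for ITGB7, against 78.4% and 41.6% for the 2 of ITGB1.

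Transcript levels, in TPM, which is per length and can be set side by side between genes, fell into 3 ranges. In DMSO, ITGB2 (262 ± 18.9 TPM, SD, n = 3), ITGA4 (244 ± 16.6), ITGAL (238 ± 11.8) and ITGB1 (132 ± 3.96) were high. ITGA5 (35.8 ± 2.1), ITGB7 (23.4 ± 1.19), ITGAX (17.5 ± 0.916) and ITGAM (13.2 ± 1.1) were lower. ITGA3 and ITGA6, chains of laminin receptors, were at or under the floor of 3 counts in every library, with 17 and 4 counts over all 21, so that neither could be tested and no difference in them was detectable at this depth. Expected counts of the other 8 members ranged from 115 for ITGB7 to 45029 for ITGA4, and the RSEM posterior SD of a count, which grows where reads are shared with other genes, stayed at or below 1.08 counts for ITGAM and ITGAX and 35.6 counts for ITGB1.

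**Figure D1:**
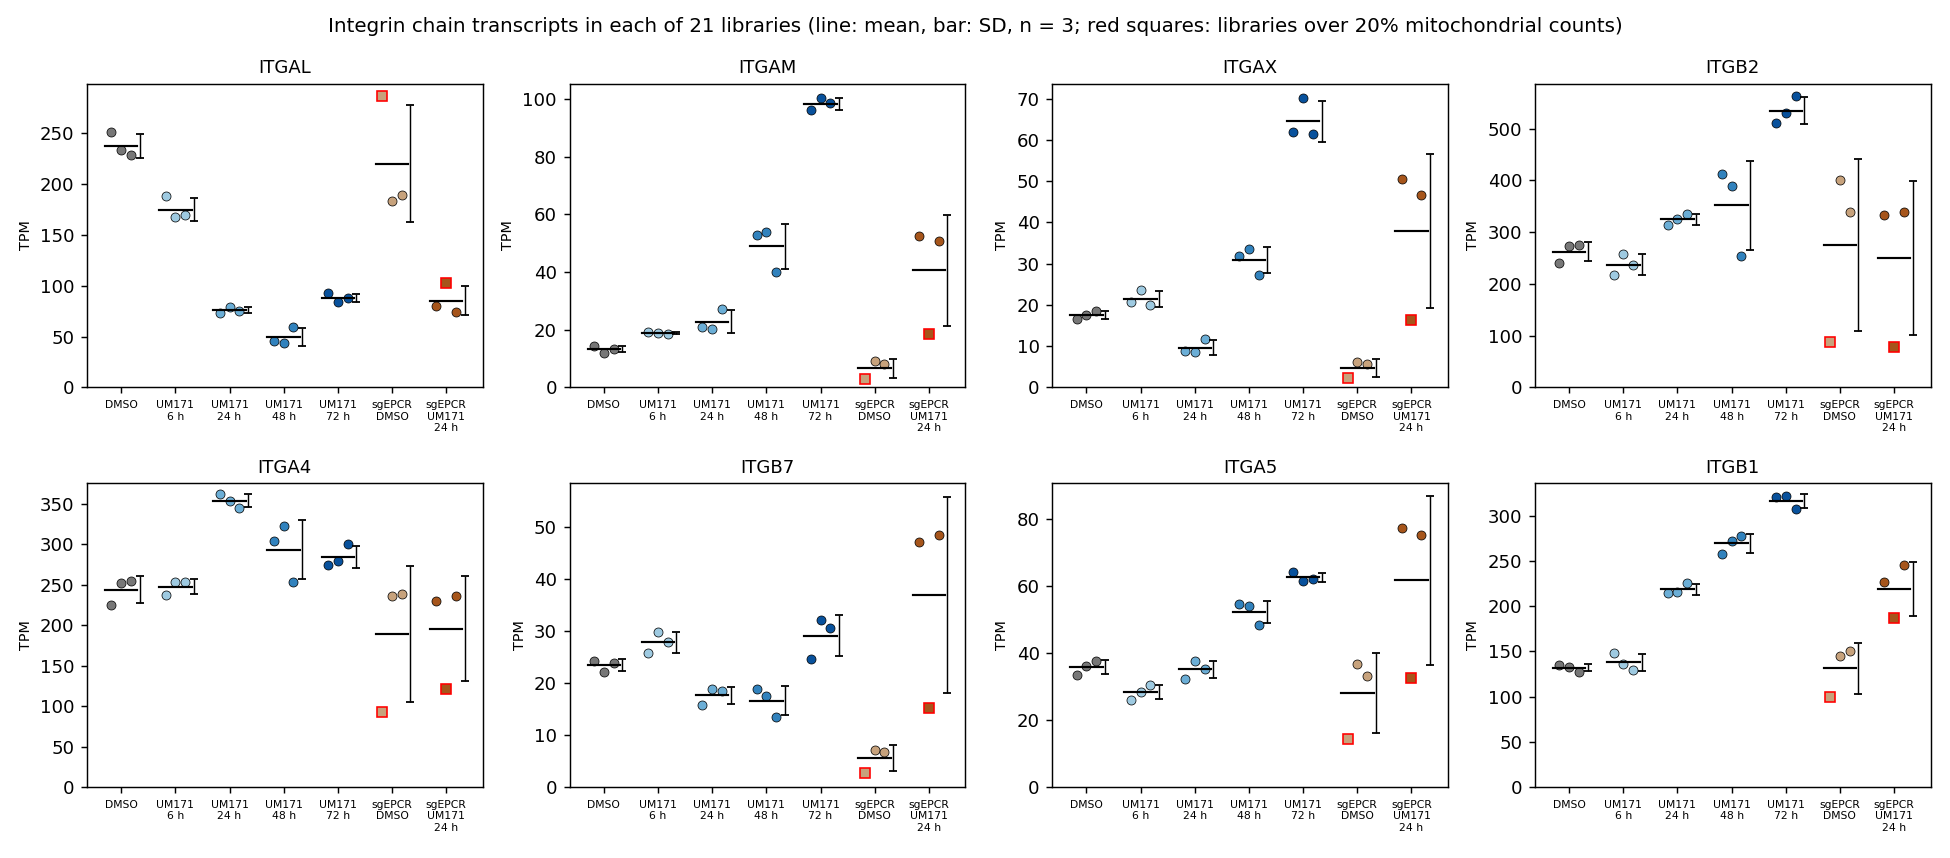
TPM of 8 integrin chains (y axis, from 0) in each of the 21 libraries, by group (x axis); lines are means and bars SD of 3 libraries, and red squares mark the 2 libraries with over 20% mitochondrial counts. ITGAM rose from a mean of 13.2 in DMSO to 98.3 TPM at 72 h while ITGAL fell from 238 to 88.1, and the marked libraries were the lowest of their group for every chain shown other than ITGAL.

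The time course asks which transcripts follow UM171 and when. A member was said to rise or fall at an adjusted p under 0.05 in edgeR's quasi-likelihood test on the expected counts, and was called changed at the study's limits of an adjusted p under 0.0001 and more than 2-fold. At 72 h 4 of the 8 tested members were called, with ITGAM, ITGAX and ITGB1 higher and ITGAL lower, where 20.8% of all tested genes were called (2486 higher and 962 lower of 16575). At the weaker limit 7 members rose and 1 fell, against 75.6% of all genes past it in either direction. The members' median log2 fold change at 72 h was 0.90, against 0.02 over all genes.

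ITGAM held the largest rise of the 8 tested members at 72 h. Its TPM were 14.2, 12 and 13.4 in the 3 DMSO libraries, 19.2, 18.8 and 18.5 at 6 h, 20.8, 20.2 and 27.3 at 24 h, 52.8, 53.9 and 39.9 at 48 h, and 96.0, 100.3 and 98.5 at 72 h. No library of a later time overlapped those of an earlier time. The log2 fold change against DMSO was 0.33 (SE 0.055) at 6 h, 0.82 (SE 0.054) at 24 h, 2.05 (SE 0.053) at 48 h and 3.02 (SE 0.054, an 8.13-fold rise) at 72 h, with edgeR adjusted p-values of 5.9e-05, 4.9e-10, 2.8e-15 and 4e-17. The step from 24 to 48 h alone was 2.34-fold (adjusted p = 1.6e-11, edgeR).

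ITGAX, the neighbour of ITGAM, took a different course. Its TPM were 16.6, 17.5 and 18.4 in DMSO, 8.76, 8.49 and 11.7 at 24 h, 31.8, 33.5 and 27.3 at 48 h, and 62.0, 70.2 and 61.3 at 72 h. All 24 h libraries lay below, and all 48 and 72 h libraries above, those of DMSO. ITGAX fell 1.93-fold at 24 h (log2 -0.95, SE 0.074, adjusted p = 4.9e-09), then rose to 1.88-fold above DMSO at 48 h and 3.64-fold at 72 h (log2 1.86, SE 0.069, adjusted p = 1.6e-13, edgeR). ITGAX was the only member called in the step from 6 to 24 h, where 10.0% of all genes were called, and 5 members rose and 3 fell at the weaker limit, where 67.1% of genes passed. From 24 to 48 h 5 rose and 2 fell at that limit, where 45.7% of genes passed, and the 3.62-fold rise from 24 to 48 h was called with that of ITGAM, where 2.85% were. At 24 h against DMSO the fall passed the 2-fold limit without UM171 24 h replicate 3 (log2 -1.04), and in the step from 6 h it missed that limit without UM171 6 h replicate 1 or 24 h replicate 2 (log2 -0.98 in each).

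ITGAL was the only member that lay below DMSO at all 4 times. Its TPM were 251, 234 and 229 in DMSO, 188, 167 and 169 at 6 h, 73.6, 79.4 and 75.2 at 24 h, 45.9, 43.7 and 59.4 at 48 h, and 92.6, 84.1 and 87.6 at 72 h. The groups did not overlap, and the level was lowest at 48 h. Against DMSO the fall was 1.54-fold at 6 h (adjusted p = 4.5e-10), 3.03-fold at 24 h, 5.47-fold at 48 h (log2 -2.45, SE 0.039, adjusted p = 2e-17) and 3.17-fold at 72 h (log2 -1.66, SE 0.038, adjusted p = 4.5e-16, edgeR). From 48 to 72 h ITGAL rose 1.73-fold (adjusted p = 5.7e-11), below the limit for a call. At 24 h it was the only member called, where 13.7% of all genes were, and 4 members rose and 3 fell at the weaker limit, where 69.7% of genes passed.

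ITGB2, the partner of these 3 chains, had TPM of 241, 272 and 274 in DMSO, 314, 325 and 335 at 24 h, 413, 388 and 253 at 48 h, and 511, 529 and 563 at 72 h. Replicate 3 at 48 h, the library with the shortened lengths, lay within the DMSO range and the others above it. By counts ITGB2 fell 1.24-fold at 6 h (adjusted p = 5.8e-05) and rose 1.15-fold at 24 h, 1.42-fold at 48 h and 2.0-fold at 72 h (log2 1.00, SE 0.052, adjusted p = 1.4e-11, edgeR). The fall at 6 h did not pass the test with total count scaling, with limma or in the fit of all 21 libraries (adjusted p = 0.11, 0.4 and 0.23), nor the rise at 24 h with the last 2 (0.067 and 0.42). The rise at 72 h lay just under the 2-fold limit, and ITGB2 was called in 4 of the alternative analyses, with log2 values from 1.02 to 1.07, and without DMSO replicate 2, UM171 72 h replicate 1 or UM171 72 h replicate 3 (log2 1.00 to 1.01).

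**Figure D2:**
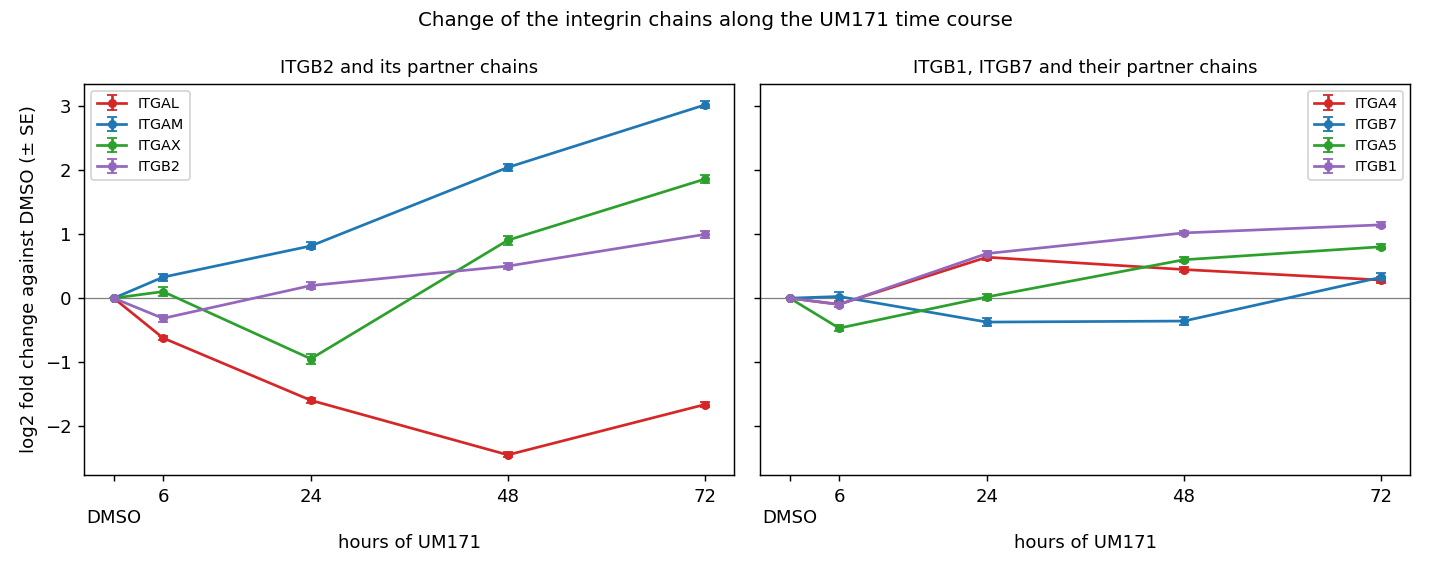
Log2 fold change against DMSO (y axis, bars are SE from the edgeR fit of 15 libraries) of 8 integrin chains after 6, 24, 48 and 72 h of UM171 (x axis), with ITGB2 and its partners on the left and ITGB1, ITGB7 and their partners on the right. ITGAM reached 3.02 and ITGAL -1.66 at 72 h, and ITGAX was at -0.95 at 24 h before it rose to 1.86.

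The makeup of the ITGB2 partner pool changed with these courses. ITGAL gave 89.1, 88.8 and 87.8% of the summed TPM of ITGAL, ITGAM and ITGAX in the DMSO libraries, 71.3, 73.5 and 65.9% at 24 h, 35.2, 33.3 and 46.9% at 48 h, and 37.0, 33.0 and 35.4% at 72 h. ITGAM rose from 4.92 ± 0.307% (SD, n = 3) of the pool in DMSO to 39.2 ± 0.774% at 72 h. The summed TPM of the pool was 268 ± 11.7 in DMSO, 109 ± 5.55 at 24 h and 251 ± 3.59 at 72 h. The log2 ratio of ITGB2 to the pool was -0.04 ± 0.168 in DMSO, 1.58 ± 0.026 at 24 h and 1.09 ± 0.083 at 72 h. It did not overlap between DMSO and either time (two-sided exact permutation test, p = 0.1 in each, the smallest that 3 against 3 libraries allow). All p-values of such ratios come from 12 comparisons in which none could fall below 0.1.

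**Figure D3:**
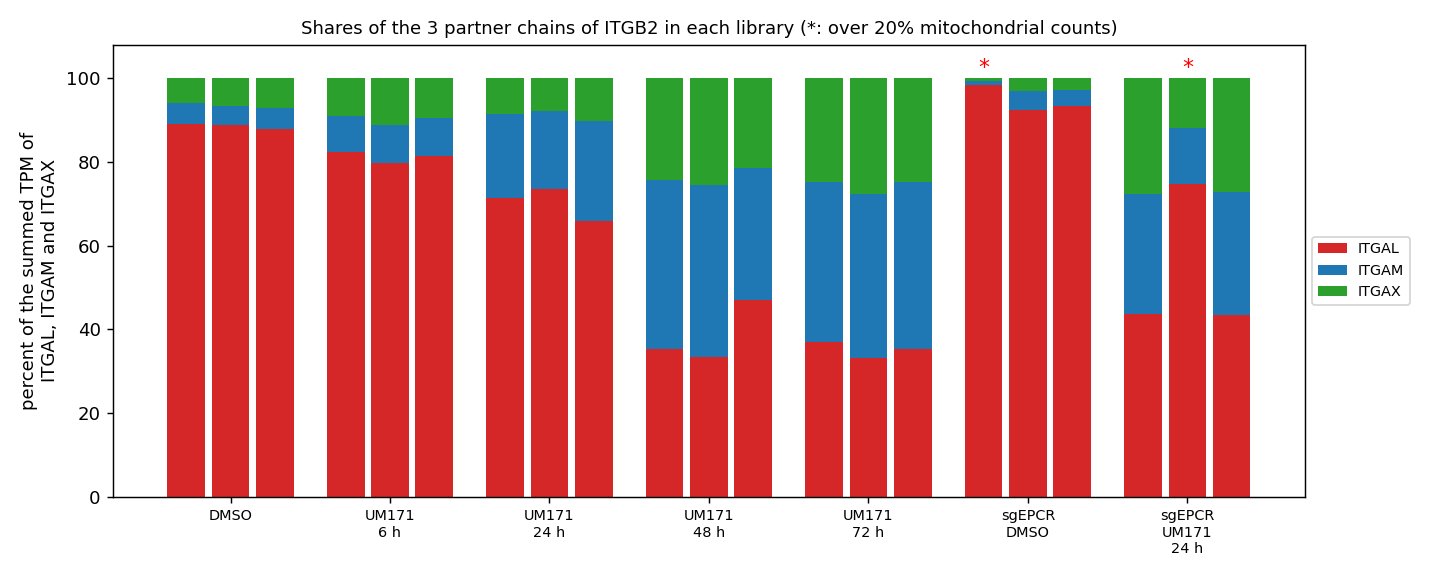
Percent of the summed TPM of ITGAL, ITGAM and ITGAX given by each (y axis, stacked to 100%) in each library, grouped by condition (x axis); asterisks mark the 2 libraries with over 20% mitochondrial counts. ITGAL held 87.8 to 89.1% in DMSO and 33.0 to 37.0% at 72 h, and in the sgEPCR UM171 group 43.4 and 43.6% in the unmarked libraries and 74.6% in the marked one.

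Among the fibronectin and VCAM1 receptors, ITGB1 rose throughout from 24 h. Its TPM were 135, 133 and 128 in DMSO, 215, 215 and 226 at 24 h, 258, 273 and 278 at 48 h, and 320, 322 and 307 at 72 h, with no overlap from one of these times to the next. The rise was 1.62-fold at 24 h (adjusted p = 3.2e-11), 2.03-fold at 48 h (log2 1.02, SE 0.037, adjusted p = 1.8e-13) and 2.21-fold at 72 h (log2 1.15, SE 0.037, adjusted p = 3.1e-14, edgeR). At 48 h it was called with ITGAM and ITGAL, 3 members in all where 16.4% of genes were called (6 rose and 2 fell at the weaker limit, where 72.1% passed), but ITGB1 missed the 2-fold limit without UM171 48 h replicate 3 (log2 0.996). At 6 h ITGB1 was 0.10 lower on the log2 scale (adjusted p = 0.027, edgeR) and the direction turned with total count scaling and with limma on TPM, under which the median of all genes at 6 h lay 0.20 and 0.13 above 0. It did not pass the test in 6 of 10 alternatives and without DMSO replicate 1 or 3.

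ITGA4 was highest at 24 h. Its TPM were 225, 252 and 254 in DMSO, 362, 354 and 346 at 24 h, 304, 323 and 253 at 48 h, and 275, 280 and 300 at 72 h. The 24 h libraries stood above all others of the time course, and 48 h replicate 3 lay within the DMSO range. By counts the rise was 1.56-fold at 24 h (adjusted p = 4.7e-10), 1.36-fold at 48 h and 1.22-fold at 72 h (log2 0.28, SE 0.042, adjusted p = 8.7e-06, edgeR), and the step from 24 to 48 h was a fall (log2 -0.19, adjusted p = 0.0012). The step from 48 to 72 h (log2 -0.16, adjusted p = 0.0029) did not pass the test with limma, upper quartile scaling, total count scaling or length offsets (adjusted p = 0.75, 0.11, 0.15 and 0.051), and the TPM of these times overlapped. ITGA4 was not called at any time.

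ITGB7, the other partner of ITGA4, stayed within a narrower range. Its TPM were 24.3, 22.1 and 23.9 in DMSO, 15.8, 18.8 and 18.5 at 24 h, 18.8, 17.5 and 13.4 at 48 h, and 24.7, 32.0 and 30.6 at 72 h. It fell 1.3-fold at 24 h and 1.28-fold at 48 h (adjusted p = 8.1e-05 and 0.00013) and stood 1.25-fold above DMSO at 72 h (log2 0.33, SE 0.064, adjusted p = 0.00021, edgeR). None of the 3 passed the test in the fit of all 21 libraries (adjusted p = 0.071, 0.069 and 0.1). ITGA5 had TPM of 33.5, 36.2 and 37.7 in DMSO, 26.0, 28.5 and 30.3 at 6 h, 54.4, 53.9 and 48.4 at 48 h, and 63.9, 61.5 and 62.0 at 72 h. It fell 1.38-fold at 6 h (adjusted p = 7.4e-08; 0.072 in the fit of all 21 libraries), did not pass the test at 24 h, and rose 1.52-fold at 48 h and 1.75-fold at 72 h (log2 0.80, SE 0.042, adjusted p = 1.1e-11, edgeR).

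At 6 h no member was called, where 7.03% of all genes were. At the weaker limit 1 rose (ITGAM) and 4 fell (ITGAL, ITGB2, ITGA5 and ITGB1), with 62.1% of all genes past it. From 48 to 72 h no member was called either, where 3.35% of all genes were, and 7 rose and 1 fell at the weaker limit with 57.3% of genes past it. The log2 ratio of ITGB1 to its α partners among the members (ITGA3, ITGA4, ITGA5 and ITGA6 summed) left all other α chains out. This ratio was -1.08 ± 0.136 in DMSO, -0.83 ± 0.067 at 24 h and -0.14 ± 0.09 at 72 h (SD, n = 3). Neither time overlapped with DMSO (two-sided exact permutation test, p = 0.1 each, the smallest possible). The log2 ratio of ITGB1 to ITGB2 rose from -0.99 ± 0.143 to -0.57 ± 0.024 at 24 h without overlap (exact p = 0.1) and was -0.76 ± 0.104 at 72 h, where the groups overlapped (exact p = 0.2).

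The sgEPCR groups ask whether the 24 h response changes in cells edited at PROCR. In these cells 4 of 8 members were called after 24 h of UM171, with ITGAM, ITGAX and ITGB7 higher and ITGAL lower, where 10.3% of all genes were called, and 2 more rose at the weaker limit, ITGA5 and ITGB1, where 52.1% passed. No member was called with limma or with the replicate block. With total count scaling ITGAL, ITGAM and ITGB7 lost the call, and the records for ITGAX disagree, so at most 1 member was called. ITGB1 (log2 0.57, adjusted p = 0.019; 0.50, adjusted p = 1.6e-08, edgeR, without the 2 libraries of high mitochondrial share) did not pass the test with the replicate block or without sgEPCR DMSO replicate 2 or 3 (adjusted p = 0.078, 0.066 and 0.07). The fall of ITGAL was -1.53 on the log2 scale and -1.45 without the 2 libraries. Without the 2 libraries of high mitochondrial share the count was 5, with ITGA5 added, where 15.7% of genes were called.

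Of the tested members ITGAX had the largest difference between the responses of the cell groups. Its TPM were 2.22, 6.25 and 5.7 in sgEPCR DMSO and 50.5, 16.4 and 46.6 in sgEPCR UM171, where the lowest value of each group belonged to the library of high mitochondrial share. The groups did not overlap. The rise was 6.26-fold (log2 2.65, SE 0.193, adjusted p = 1.2e-06, edgeR; log2 2.70, SE 0.082, without the 2 libraries), whereas ITGAX had fallen 1.93-fold at 24 h in the other cells. The difference between the responses, tested as an interaction, was 3.58 on the log2 scale (SE 0.265, adjusted p = 2.9e-06, edgeR) and 3.65 without the 2 libraries. Both ITGAX calls were lost with limma and the replicate block, and that of the difference also with total count scaling. For the response the records of that scaling disagree.

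ITGB7 also responded in opposite directions in the 2 cell groups. Set against the other cells, ITGB7 in sgEPCR cells differed more in DMSO (log2 -1.83) than in UM171 for 24 h (log2 0.99). In UM171 its TPM overlapped between the cell groups. Its TPM were 2.63, 7.13 and 6.77 in sgEPCR DMSO and 47.1, 15.1 and 48.4 in sgEPCR UM171, again with the lowest value in the marked libraries and no overlap. It rose 5.47-fold (log2 2.45, SE 0.216, adjusted p = 4.7e-06; log2 2.53 without the 2 libraries), against a fall of 1.3-fold in the other cells, and the difference of the responses was 2.82 (SE 0.294, adjusted p = 2.9e-05, edgeR; 2.91 without the 2 libraries). Leaving out 1 library in turn ended the call of this difference in 9 of 12 cases, with adjusted p-values from 0.00011 to 0.0002, at log2 values from 2.68 to 2.85. These were each of the 3 DMSO and each of the 3 UM171 24 h libraries of the cells without sgEPCR, sgEPCR DMSO replicate 3, and sgEPCR UM171 replicates 1 and 3.

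ITGAM rose in both cell groups. Its TPM were 2.84, 9.05 and 7.94 in sgEPCR DMSO and 52.6, 18.4 and 50.7 in sgEPCR UM171. The rise was 4.49-fold (log2 2.17, SE 0.147, adjusted p = 7.1e-07; log2 2.20 without the 2 libraries), the log2 response was 1.34 larger than in the other cells (SE 0.201, adjusted p = 0.00032, edgeR), and the difference met the limits for a call without the 2 libraries (1.39, adjusted p = 1.9e-09) and without sgEPCR UM171 replicate 2 alone (1.48, adjusted p = 2.2e-05). ITGAM at 24 h in sgEPCR cells, 40.6 ± 19.2 TPM, overlapped its 48 h level in the other cells, 48.9 ± 7.76.

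ITGA5 rose 2.04-fold in sgEPCR cells (adjusted p = 0.0056; 0.059 with limma; log2 1.08 without the 2 libraries), and its response was 1.00 larger (SE 0.353, adjusted p = 0.039; 1.06, adjusted p = 3.8e-10, edgeR, without the 2 libraries). The difference for ITGA5 did not pass the test in 9 of 12 cases with 1 library left out (log2 0.79 to 1.25 over all 12), nor with limma, total count scaling or the replicate block (adjusted p = 0.2, 0.15 and 0.13). ITGA4 had TPM of 92.5, 236 and 239 in sgEPCR DMSO and 230, 121 and 236 in sgEPCR UM171, which overlapped. The response of ITGA4 was 0.80 lower than in the other cells (SE 0.101, adjusted p = 0.00011; 0.86 lower, adjusted p = 3.6e-09, edgeR, without the 2 libraries), and did not pass the test with limma or total count scaling (adjusted p = 0.65 and 0.096).

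For 3 members the difference of the responses did not pass the test with all libraries. It was 0.06 for ITGAL (SE 0.098, adjusted p = 0.65, edgeR), -0.13 for ITGB1 (SE 0.25, adjusted p = 0.71) and -0.61 for ITGB2 (SE 0.349, adjusted p = 0.18), and without the 2 libraries it was 0.16, -0.19 and -0.54 with adjusted p-values of 0.01, 0.0021 and 6.3e-07. In all, 2 of 8 members were called for the difference of the responses, ITGAX and ITGB7, where 7.77% of all genes were called, and 5 passed the weaker limit, where 45.0% of genes did. Without the 2 libraries 4 were called, ITGAM and ITGA5 in addition, where 19.1% of genes were.

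**Figure D4:**
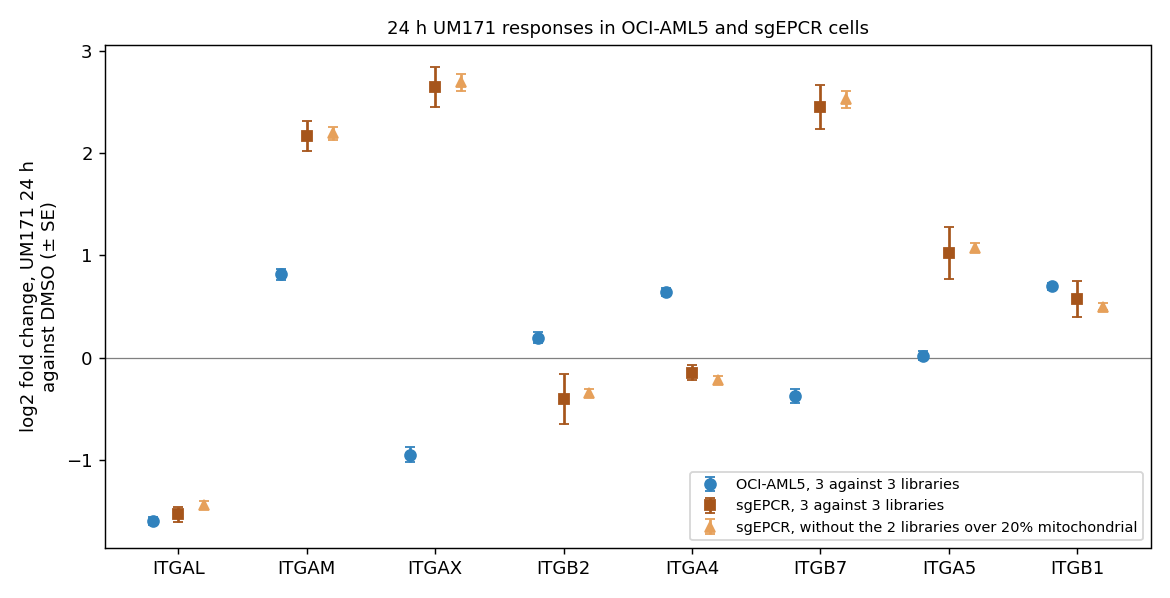
Log2 fold change of 24 h UM171 against DMSO (y axis, bars are SE) of 8 integrin chains in OCI-AML5 cells (circles), in sgEPCR cells (squares) and in sgEPCR cells without the 2 libraries of over 20% mitochondrial counts (triangles). ITGAX and ITGB7 were at -0.95 and -0.37 in OCI-AML5 cells and at 2.65 and 2.45 in sgEPCR cells, while ITGAL lay at -1.60 and -1.53.

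Between the 2 DMSO groups, whose labelled times differ (72 h in cells without sgEPCR and 24 h in sgEPCR cells), genotype and time cannot be told apart. ITGB7 was called lower in sgEPCR cells (log2 -1.83, SE 0.213, adjusted p = 9.6e-05, edgeR), where 2.84% of all genes were called. It lost the call when any library was left out other than sgEPCR UM171 replicate 2, with adjusted p-values up to 0.00077, and was at log2 -1.70 without the 2 libraries. ITGAX was 2.94-fold lower (adjusted p = 0.00012; called without the 2 libraries, log2 -1.43), ITGAM 1.45-fold lower (adjusted p = 0.015; log2 -0.43 without the 2 libraries) and ITGAL 1.15-fold lower (adjusted p = 0.048; log2 -0.26 without the 2). ITGAL lost the weaker limit in 10 of 12 cases with 1 library left out and in 4 of 10 alternatives, and ITGAM in 2 of 12 and 2 of 10. ITGB7, ITGAX, ITGAM and ITGAL were all the members past the weaker limit, where 33.7% of genes were. The direction of ITGAL turned to 0.53 higher with offsets for the deposited length (adjusted p = 0.4). Without the 2 libraries 2 members were called, ITGB7 and ITGAX, where 6.50% of genes were.

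Between the 2 groups in UM171 for 24 h, which have the same labelled time, ITGAX was called higher in sgEPCR cells (4.06-fold, log2 2.02, SE 0.188, adjusted p = 1.5e-05, edgeR), where 4.46% of all genes were called. It lost the call when any 1 of the 3 UM171 24 h libraries of cells without sgEPCR was left out (adjusted p from 0.00011 to 0.00022). ITGB7, ITGAM and ITGA5 rose 1.98-, 1.75- and 1.76-fold at the weaker limit and ITGA4 was 1.66-fold lower, where 43.0% of genes passed. Under limma none of these 4 did, under total count scaling ITGA4 alone, and ITGA5 also lost that limit in 5 of 12 cases with 1 library left out. Without the 2 libraries the log2 values were 2.23 for ITGAX, 1.21 for ITGB7, 0.96 for ITGAM, 1.08 for ITGA5 and -0.74 for ITGA4. Without the 2 libraries 3 members were called, with ITGB7 and ITGA5 added, where 9.87% were, and without sgEPCR UM171 replicate 2 alone 2 were, with ITGB7 added.

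Counts and TPM parted for ITGAL in the libraries of high mitochondrial share. In sgEPCR DMSO replicate 1 ITGAL had 9471 counts, fewer than the 15828 and 20082 of the other replicates, but 287 TPM against 184 and 190. Its deposited length was 1270 bases in that library, 1427 in replicate 2 of sgEPCR UM171 and 2505 in UM171 48 h replicate 3, and lay from 3095 to 3976 in the remaining 18. These 3 libraries are those with the most genes of reduced length. ITGB2 was also lowest in the 2 sgEPCR libraries, with 86.9 TPM against 400 and 338 in sgEPCR DMSO and 77.7 against 333 and 339 in sgEPCR UM171. The log2 ratio of ITGB2 to its partner pool was 0.00 ± 1.52 in sgEPCR DMSO and 0.34 ± 1.01 in sgEPCR UM171 (SD, n = 3, exact p = 0.7), a difference of 0.35 that was 0.053 without the 2 libraries. The log2 ratio of ITGB1 to ITGB2 differed by 0.89 between the sgEPCR groups (exact p = 0.4; 0.30 to 1.40 with 1 library left out) and by 0.18 between the DMSO groups (exact p = 1.0), where it was -0.33 without the 2 libraries. That of ITGB1 to its α partners among the members was 0.46 higher in sgEPCR UM171 than in sgEPCR DMSO (exact p = 0.3), and 0.46 higher in sgEPCR DMSO than in DMSO, without overlap (exact p = 0.1).

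The deposited length also moved for ITGA4 along the time course. It was 3415, 3340 and 3340 bases in the DMSO libraries, 3483, 3468 and 3453 at 6 h, 3702, 3714 and 3665 at 24 h, 3707, 3773 and 3729 at 48 h, and 3656, 3680 and 3669 at 72 h. No library from 24 h on overlapped those of DMSO (two-sided exact permutation test, p = 0.1 at each time, the smallest possible). In sgEPCR DMSO the ITGA4 length was 3473 to 3565 bases, also without overlap with DMSO (exact p = 0.1). In sgEPCR UM171 it was 3476 to 3611, which overlapped sgEPCR DMSO (exact p = 0.6). Lengths of ITGAL and ITGB2 at 24 h and of ITGB7 at 48 h did not overlap those of DMSO either. Of 7269 genes over 5 TPM in every library, 27.6% had lengths that did not overlap between 24 h and DMSO, 22.9% between 48 h and DMSO and 28.8% between 72 h and DMSO. The files list 11 transcripts of ITGA4 but give no value for each, so which of them changed was not analysed here.

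**Figure D5:**
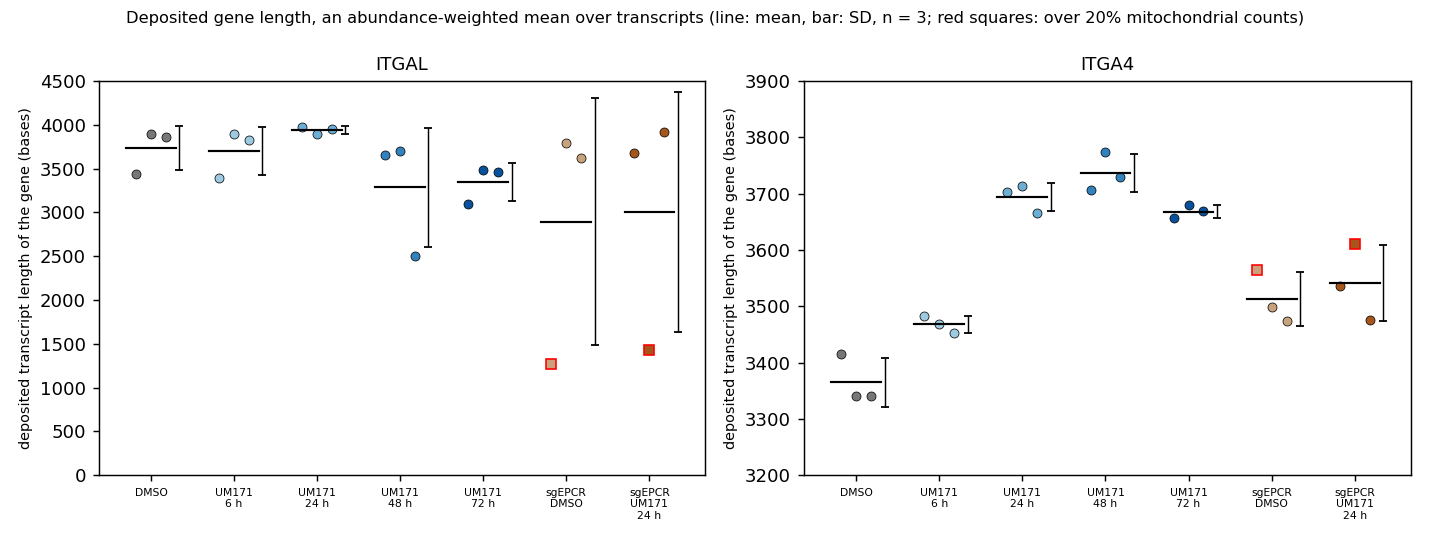
Deposited length in bases (y axis; from 0 for ITGAL, cut above 0 for ITGA4) of ITGAL and ITGA4 in each library by group (x axis); lines are means and bars SD of 3 libraries, and red squares mark the libraries with over 20% mitochondrial counts. The marked libraries were at 1270 and 1427 for ITGAL, and ITGA4 rose from 3340 to 3415 in DMSO to 3702, 3714 and 3665 at 24 h.

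Other genes of the pathway, from lists chosen with earlier results known, were counted at the same limits at 72 h, where 20.8% of all genes were called and their median was 0.02. Of 16 other integrin chains 12 were tested, 7 were called higher and none lower, and their median log2 fold change was 2.48. With at least 10 counts in every library, a filter applied before testing, 4 were called, where 2735 of 13388 genes were (3448 of 16575 in the main fit). How many of the 12 chains stayed in that test is not given here. ITGA2, a collagen receptor chain, rose from 0.55 ± 0.0964 to 11 ± 0.759 TPM (21.1-fold, adjusted p = 1.6e-15, edgeR), and ITGA11 was called at a level that stayed at or below 0.4 TPM on average. Of 26 ligand genes 15 were tested and 9 called higher, among them SPP1 (osteopontin, a ligand of ITGA4 pairs), from 0.583 ± 0.264 to 78.1 ± 5.93 TPM (165-fold, adjusted p = 1.4e-17, edgeR) and LAMB1, a laminin chain whose group means were at most 0.463 TPM. ITGA11 and LAMB1 were not called with limma or length offsets. VCAM1 was at 0 counts in every library.

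Genes that switch integrins on moved both ways. Of 13 tested talin, kindlin and RAP1 genes 2 were called higher, FYB1 (an adaptor of integrin activation, 4.59-fold) and TLN2 (a talin, 3.33-fold), and 1 lower, RASGRP2, the exchange factor that activates RAP1 in blood cells (80.7 ± 1.39 to 42.2 ± 4.59 TPM, 2.01-fold, adjusted p = 7.4e-12, edgeR). The call of RASGRP2, close to 2-fold, was lost in 6 of 10 alternatives and in 3 of 15 cases with 1 library left out. FERMT3, the kindlin of blood cells, averaged 118 TPM in DMSO and 85.8 at 72 h. In the same groups TLN2 averaged 1.97 and 6.78 TPM, and TLN1, the other talin gene, 104 and 95.4. Of 9 tested genes that restrain activation 2 were called lower, ITGB1BP1 (2.18-fold), which competes with talin for the ITGB1 tail, and DOK2 (2.11-fold; not called with total count scaling or all 21 libraries). At the weaker limit 8 fell and 1 rose, where 75.6% of all genes passed. The shares called in these 2 lists were near the 20.8% of all genes.

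Of 22 tested kinases and adaptors 3 were called higher and none lower, where 20.8% of all genes were called. FYN, a SRC family kinase, rose the most, from 3.46 ± 1.11 to 70.4 ± 2.83 TPM (24.5-fold, adjusted p = 1.2e-15, edgeR). PTK2, the focal adhesion kinase, rose 4.86-fold, from 4.08 ± 0.931 to 18.5 ± 1.27 TPM. PTK2B of the same list averaged 196 TPM in DMSO and 129 at 72 h. Of 10 tested membrane partners 2 were called higher, PLAUR (the urokinase receptor, which associates with ITGAM, 2.9-fold) and CD226 (an adhesion receptor linked to ITGAL, 15.5-fold, 5.09 TPM at 72 h), a share near that of all genes. ITGB2-AS1, which lies antisense to ITGB2, rose 5.92-fold, from 5.44 ± 0.0808 to 33.4 ± 1.24 TPM (adjusted p = 1.3e-14, edgeR). The kit keeps strand, but whether the counting used strand is not given in the sources used here, so reads of ITGB2 and ITGB2-AS1 may not be told apart.

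For the difference of the 24 h responses, THBS1, thrombospondin, was among 3 ligands called with a larger response, with 0.423 ± 0.229 TPM in sgEPCR DMSO and 21.9 ± 7.91 in sgEPCR UM171, against 2.68 ± 0.351 and 4.05 ± 0.603 in the other cells (difference 5.08, SE 0.2, adjusted p = 7.1e-08, edgeR; 5.07 without the 2 libraries). PLAUR (1.93, or 2.03 without the 2 libraries), PTK2 (1.8, or 1.73), CYTH1, a cytohesin that binds the ITGB2 tail (2.34, or 2.43), ITGAV (1.42, or 1.30) and CD63, a tetraspanin (1.23, or 1.26), were also called with a larger response in sgEPCR cells. SRC (3.80, or 4.13 without the 2 libraries) and C3 (4.83, or 5.02), the complement protein, were called too, but no group averaged above 1.68 TPM. FERMT1, a kindlin (-1.98, or -1.91), and LAMC1, a laminin chain (-1.09, or -1.06), were called with a smaller response. None of these 10 genes was called with limma or with the replicate block, and with total count scaling 2 of them were, THBS1 and C3. With 1 library left out SRC lost its call in 11 of 12 cases and C3 in 8 of 12. Over all tested genes 7.77% were called for this difference.

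The genes whose course over the 21 libraries was most like that of ITGAM, among 10895 compared by Pearson correlation of log2 CPM, were ADAMTSL4 (0.988), MFGE8 (0.977) and LITAF (0.976). ADAMTSL4 averaged 3.55 TPM in DMSO and 25.4 at 72 h, and MFGE8 3.32 and 18.7. The most like ITGAL were PDPR (0.965), USE1 (0.951) and ZSCAN31 (0.948), and PDPR averaged 30.6 TPM in DMSO and 16.6 at 48 h. These values describe 21 libraries in 7 groups that share cell line and treatment, and carry no p-value.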

How the data were processed

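RNA-seq of OCI-AML5 cells was analysed from 21 libraries in 7 groups of 3, assigned by their labels. The authors deposited, for each library and gene, RSEM's expected count, which is not normalized and splits reads shared between genes, with a posterior SD of that count. Deposited beside them were TPM, per length and with an equal sum over genes in all libraries, and a transcript length in bases weighted by abundance. The submitters' processing notes name CASAVA 1.8.2, Trimmomatic 0.35, STAR 2.5.1b and RSEM 1.2.28 on GRCh38, whereas the methods of the study name kallisto and sleuth, which need files not used here. Labels and study differ on the dose of UM171, on the medium and on how long DMSO was applied, 72 h by the labels. The labels were followed for dose and time, and the medium was not used.

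Of 58219 entries per library, 45 were Y copies of pseudoautosomal genes and were added to the X copies. Of the 58174 identifiers left, 57392 had a symbol. Gene positions came from GENCODE (GRCh38) and promoter stretches from RefSeq (GRCh38.p14).

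Expected counts were rounded and tested with edgeR 4.0.16 in R 4.3.3 (filterByExpr, TMM, quasi-likelihood test, Benjamini-Hochberg adjustment over all tested genes). The time course was fitted on 15 libraries (16575 genes) and the sgEPCR comparisons on 12 (15901 genes), with no term beside the group. Each SE was taken as the size of the log2 change over the root of its F statistic. For ratios and lengths the test was an exact permutation (two-sided), which with 3 against 3 libraries cannot fall below p = 0.1. The pipeline was tested on simulated data. Named genes were all members, PROCR, up to 2 of the largest called rises and falls per list at 72 h and for the difference of the responses, and the 3 genes most like the members of largest rise and fall. FERMT3, VCAM1, TLN1, PTK2B and the marker genes given by level were added after their values were seen. The members and lists were chosen with earlier results of these data known.

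Alternatives were scaling by total count or upper quartile, DESeq2 1.42.0, limma 3.58.1 (log2 of TPM + 1), at least 10 counts in every library, no filter beyond 1 count, all 21 libraries in 1 fit, no mitochondrial genes, a replicate block, a limit of adjusted p under 0.05, and leaving out each library or the 2 with over 20% mitochondrial counts. For ratios, counts divided by length replaced TPM. Chosen after seeing the data were offsets from the deposited length, ratios without the 2 libraries, and the alternatives for the ITGAL share. Depth was 24.3 to 51.5 M counts; 3 counts were taken as the floor, which covers counting error only. Analyses and plots used Python 3.11.15, numpy 2.4.6, pandas 2.3.3 and matplotlib 3.10.9.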

Additional observations from a re-analysis of the deposited data

Results flagged for a closer look

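The 24 h response to UM171 differed between sgEPCR cells and OCI-AML5 cells without sgEPCR for 5 of the 8 tested members in a test of the difference itself. Over all tested genes 45.0% passed the same limit, an adjusted p under 0.05. On the log2 scale, sgEPCR minus the other cells, the edgeR difference was 3.575 for ITGAX (adjusted p = 2.9e-06), 2.817 for ITGB7 (adjusted p = 2.9e-05), 1.341 for ITGAM (adjusted p = 0.00032), 1.001 for ITGA5 (adjusted p = 0.039) and -0.795 for ITGA4 (adjusted p = 0.00011). ITGAX and ITGB7 fell in the other cells and rose in sgEPCR cells. ITGA5 did not pass an adjusted p under 0.05 in 9 of 12 cases with 1 library left out, nor with limma, total count scaling or the replicate block. ITGA4 did not with limma or total count scaling (adjusted p = 0.65 and 0.096), nor ITGAM with limma (0.096). The comparison also sets DMSO libraries labelled 72 h against those labelled 24 h, and the part of that time in the differences cannot be told apart from the genotype. Groups of 3 libraries were not searched for outlying samples.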

How the results depend on the processing

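Counts of called members at 6, 48 and 72 h against DMSO stayed within 1.5 times under each alternative with the same limits. At an adjusted p under 0.05 with no minimum fold, 5 members passed at 6 h against DMSO, 7 passed at 24 h, and 8 passed at 48 h as well as at 72 h, 8 from 6 to 24 h, 7 from 24 to 48 h and 8 from 48 to 72 h, 4 between the DMSO groups, 5 between the UM171 24 h groups and 5 for the difference of the responses. Of all tested genes 33.7% (between the DMSO groups) to 75.6% (at 72 h) passed it in these comparisons. From 6 to 24 h 2 were called with length offsets, limma, total count or upper quartile scaling (ITGAL added) and 0 with no filter. Of all 16575 tested genes 1329, 896, 1869 and 1816 were called in these settings, in the same order, against 1664 in the main fit. With no filter 2064 of 30677 were. From 48 to 72 h 2 were called with limma, total count or upper quartile scaling (ITGAM and ITGAX) and 1 with at least 10 counts in every library (ITGAM). ITGAL, ITGAM and ITGAX lay close to 2-fold in these steps. For 48 to 72 h the shares of all genes called in these settings are not given here.

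In the sgEPCR comparisons limma called 0 members for the UM171 response, for both genotype comparisons and for the difference of the responses. Total count scaling called at most 1 for the UM171 response, where the records for ITGAX disagree, and 0 in each of the others. Between the DMSO groups 0 were called with length offsets, and 2 with all 21 libraries, DESeq2 or no filter. Between the UM171 24 h groups DESeq2 called 2. Without the 2 libraries of high mitochondrial share the counts were 2 and 3 for these comparisons and 4 for the difference of the responses. DESeq2 and the fit of 21 libraries also called ITGAM for that difference (log2 1.36 and 1.33). The shares of all genes called with limma, total count scaling, length offsets, DESeq2, no filter or all 21 libraries are not given for these comparisons. Changes in the counts can therefore not be read as particular to the members. The cause of these changes was not tested. The common biological coefficient of variation was 0.187 in the fit with the 2 libraries and 0.0411 without them.

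Leaving out each library gave 0 to 1 members from 6 to 24 h, 1 to 2 at 24 h, 0 to 2 between the DMSO groups, 0 to 2 between the UM171 24 h groups and 1 to 3 for the difference of the responses. The direction turned for ITGB1 at 6 h (0.063 with limma, 0.085 with total count scaling), for ITGAL between the DMSO groups (0.528 with length offsets), and, for differences of the responses that had not passed the test, for ITGAL (-0.031 with length offsets) and ITGB1 (0.023 with limma, 0.008 with upper quartile and with total count scaling; -0.381 to 0.038 over the libraries left out). The ratio of ITGB1 to ITGB2 between the DMSO groups was -0.327 without the 2 libraries and -0.327 to 0.5 over the libraries left out. The ratio of ITGB2 to its partners ranged from -0.528 to 0.925 for the sgEPCR response and from -0.471 to 0.906 between the DMSO groups. Of the values of single members in 1 comparison or for the difference of the responses, those not named here kept their direction under each alternative.

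In the time course same-numbered libraries did not deviate together, with correlations of their deviations between -0.058 and 0.055 for DMSO against the UM171 times. In the sgEPCR groups these correlations were -0.563, -0.561 and 0.413. There the 2 libraries of high mitochondrial share, which carry different numbers, correlated at 0.655, so pairing by number could not be judged. With the replicate block 0 members were called for the sgEPCR response and for the difference of the responses, and the time course counts were as without it. The block was not run for the genotype comparisons, within which it is nested.

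With 3 libraries a group and depth of at least 24.3 M, ITGA3 and ITGA6 could not be assessed, and low chains such as ITGB7 in sgEPCR DMSO rested on 115 to 362 counts.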

Other observations

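Across the 15 libraries of the time course, the log2 CPM of ITGB2 and ITGA5 had the highest correlation of any 2 members (r = 0.964), with ITGAM and ITGB2 at 0.936 and ITGAL and ITGB1 at -0.887. Over all 21 libraries the same pairs were at 0.661, 0.583 and -0.806, and ITGAM with ITGAX was the highest at 0.876. ITGAL and ITGB7 were at 0.38 over the 15 libraries and at -0.372 over the 21. The libraries fall into 5 and 7 groups of 3 that share treatment, so these values describe the courses given in the report and carry no p-value.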
